A study of Mus musculus with 6 samples.

Results

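The carboxylesterases are serine hydrolases of the endoplasmic reticulum that cut esters in drugs, in xenobiotics and in lipids such as triacylglycerol and cholesteryl ester. In the small intestine they act on absorbed esters on their way through the enterocyte, and in the liver several of them are known targets of the xenobiotic receptors PXR and CAR. The members followed here were chosen by name, as 8 mouse genes of the family, namely Ces1d, Ces1e, Ces1f, Ces1g, Ces2a, Ces2c, Ces2e and Ces3a. Of these 8 genes, 6 were among the 12393 genes with a probe set annotated to them alone, with 8 probe sets in all. Ces2c had no annotated probe set. Ces3a shared its probe set with another gene, Ces3b.

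RNA came from the ileum, the distal small intestine, of male wild type mice that were 8 to 10 months old. Their strain background was mixed, C57BL/6:129Sv, and the RNA was read on 6 single-colour Affymetrix arrays. Sham_Vehicle mice had a sham operation, in which the common bile duct was freed but not tied, and were gavaged with vehicle. In BDL_Vehicle mice the duct was ligated, cutting off bile flow to the intestine, and the same vehicle was given. BDL_GW4064 mice had the ligation and received 100 mg/kg/day of GW4064, a synthetic ligand that activates FXR, the nuclear receptor for bile acids encoded by Nr1h4. Gavage began 2 days before surgery and went on for 5 days after it in all groups. Each of the 3 groups had 2 arrays, and the labels do not say whether each array is its own animal. The p-values therefore reflect only how far these samples spread, and that spread may be technical. Sham mice given GW4064 were not analysed here. The study asked how bile flow and its receptor act on the small intestine, and the members were followed over loss of bile and over FXR activation without bile.

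The tissue label held against markers, since 10 of 10 measured enterocyte genes lay above the filter on low signal and their mean log2 signal was between 11.7 and 11.9 in every array. The FXR target Fgf15 read 316.2 and 479.6 in Sham_Vehicle, 5.5 and 3.4 in BDL_Vehicle, and 972.1 and 809.6 in BDL_GW4064. The arrays fell into sets by the signal of 18S rRNA, measured at its 5' end, which was 67.3 to 88.7 in BDL_Vehicle replicate 1 and the sham arrays and 8.6 to 13.3 elsewhere. These sets cannot be told apart from the groups when BDL_GW4064 is set against Sham_Vehicle. A term for the array set rests there on the difference between the BDL_Vehicle arrays alone, which fall in different sets. Sham_Vehicle replicate 2 had a 3' to 5' actin ratio of 1.73, against 1.09 to 1.22 in the other arrays. BDL_GW4064 replicate 2 stood apart in smooth muscle markers, with a mean log2 signal of 10.25 over 7 genes against 5.64 to 6.44 in the other arrays, and in white adipocyte markers, with 7.21 over 8 genes against 5.20 to 6.39.

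All carboxylesterase genes of the RefSeq mouse assembly GRCm38.p6 lie on chromosome 8, with the Ces1 genes in one run and the Ces2, Ces3 and Ces4 genes further along. Ces2a, which had the widest spread between groups, and Ces2e, whose groups overlapped, belong to the same run, with Ces2b, Ces2c and the pseudogene Ces2d-ps between them. The 250 bases upstream of their start sites, from RefSeq on GRCm38.p6, are shown so that the 2 genes can be compared, written 5' to 3' on the plus strand. Capitals mark AGGTCA, the core hexamer of nuclear receptor binding sites, searched on both strands.
Ces2a chr8:104733753-104734002: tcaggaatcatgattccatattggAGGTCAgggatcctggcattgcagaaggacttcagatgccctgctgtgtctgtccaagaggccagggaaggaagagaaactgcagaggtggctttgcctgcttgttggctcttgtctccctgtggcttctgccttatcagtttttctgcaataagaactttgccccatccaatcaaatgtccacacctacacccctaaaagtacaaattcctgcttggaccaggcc
Ces2e chr8:104926010-104926259: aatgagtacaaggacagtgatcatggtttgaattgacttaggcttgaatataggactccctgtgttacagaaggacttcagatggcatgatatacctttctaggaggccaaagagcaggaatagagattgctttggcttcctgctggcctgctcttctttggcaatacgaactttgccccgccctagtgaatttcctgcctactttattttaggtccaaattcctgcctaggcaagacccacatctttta
The Ces2a window held this hexamer at 1 place, beginning 226 bases upstream of the start, and the Ces2e window held no match. Of 32851 such windows in the table, 14% had a match. Paired hexamers, which the single hexamer search also counts, were searched as an inverted repeat with 1 base between, direct repeats with 1, 3 or 4 bases between and an everted repeat with 6 bases between. None had a match in either window, and each matched between 0.00304% and 0.0335% of all windows. The Ces2a and Ces2e windows had 60.4% identical bases in a global alignment, against 66.4% for Ces2a and Ces2c, 50.4% for Ces2a and Ces1e and 51.6% for Ces2a and Ces1g. Their longest shared run was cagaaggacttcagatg, beginning 205 bases upstream in Ces2a and 183 bases upstream in Ces2e. Windows were held for 5 of the 8 members, and a match is a description of letters, not a binding site.

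Ces2a, an intestinal and hepatic hydrolase of drug esters and acylglycerols, had the widest spread between groups of the members. Its MAS5 signals were 2080.3 and 2043.4 in Sham_Vehicle, 672.8 and 853.8 in BDL_Vehicle, and 2418.8 and 1737.7 in BDL_GW4064. Both BDL_Vehicle arrays lay below every other array, and the BDL_GW4064 arrays lay on either side of the Sham_Vehicle arrays. These are probe set 1449375_at. The mean was 2062 ± 26.1 in Sham_Vehicle, 763.3 ± 128 in BDL_Vehicle and 2078 ± 482 in BDL_GW4064 (SD, n = 2 arrays each).

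After ligation the Ces2a value was 2.71-fold lower, with a log2 fold change of -1.44 ± 0.18 (SE) and a 95% interval from -1.86 to -1.02. Fold changes are on the log2(signal + 4) scale, which understates the change of dim genes. The limma adjusted p was 0.12, so Ces2a did not pass the threshold of 0.05, although it ranked 6 by p among 13575 tested probe sets. With GW4064 after ligation it was 2.70-fold higher, with a log2 fold change of 1.43 ± 0.18 (SE) and an interval from 1.01 to 1.85. It ranked 12 there, and the limma adjusted p was 0.0668. These comparisons share the BDL_Vehicle arrays, so they are not independent. Between BDL_GW4064 and Sham_Vehicle the log2 difference was -0.01 ± 0.18 (SE), with an interval from -0.43 to 0.41 (limma adjusted p = 0.989).

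The GW4064 value of Ces2a passed the threshold with quantile normalisation (limma adjusted p = 0.0447) and without BDL_GW4064 replicate 2 (1.67, limma adjusted p = 0.0471), and over all 14 alternatives the adjusted p ran from 0.0447 to 0.412. A term for the array set gave -1.61 after ligation (limma adjusted p = 0.417) and 1.26 with GW4064 (limma adjusted p = 0.412). The first rests on BDL_Vehicle replicate 1 and the second on BDL_Vehicle replicate 2.

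**Figure D1:**
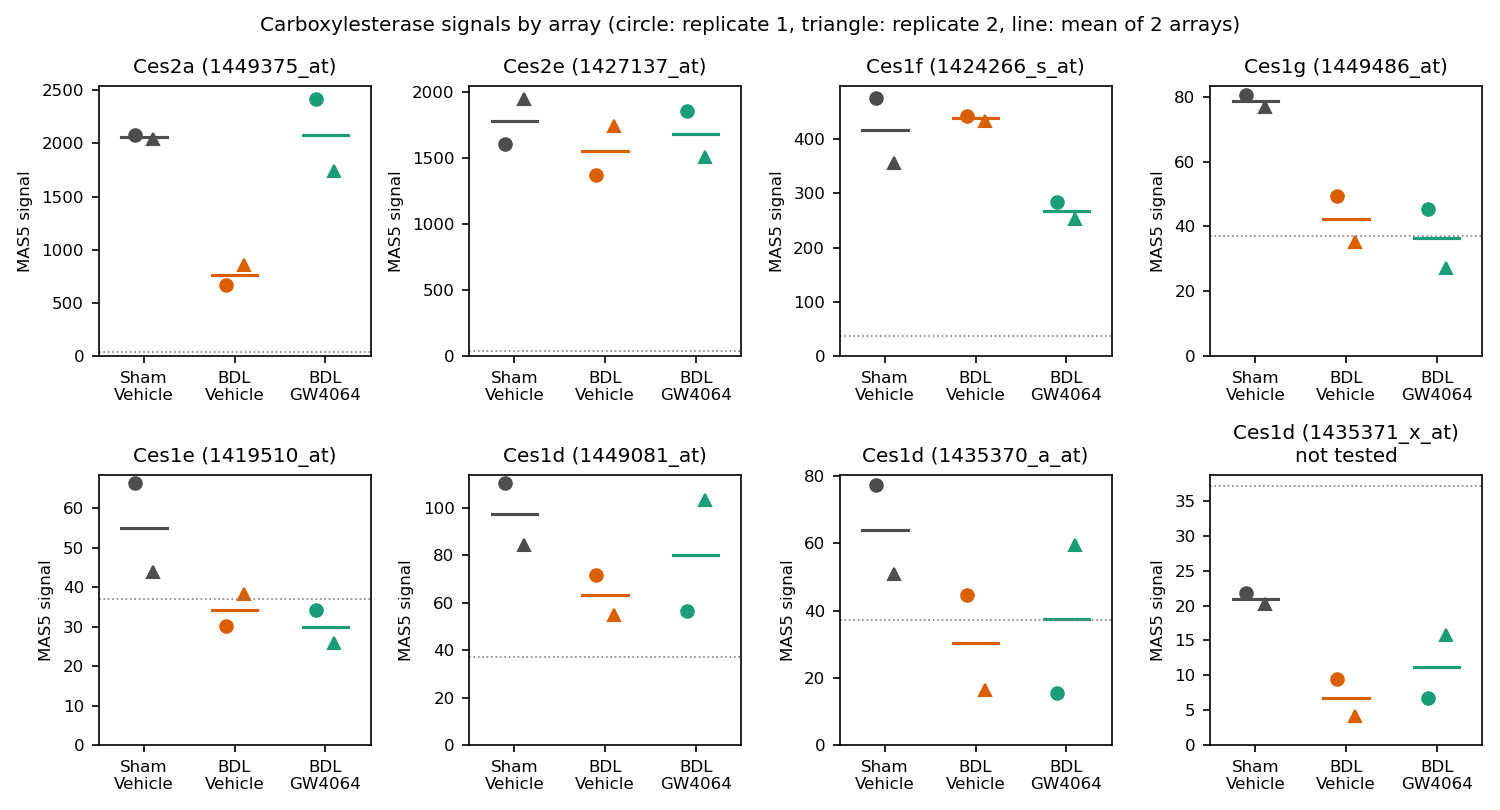
MAS5 signals of the 8 carboxylesterase probe sets (linear axes from 0) in Sham_Vehicle, BDL_Vehicle and BDL_GW4064, with circles for replicate 1, triangles for replicate 2, lines for the mean of 2 arrays and a dotted line at the filter on low signal, 37.1. The Ces2a signals of BDL_Vehicle, 672.8 and 853.8, lie below all others, and the Ces1f signals of BDL_GW4064, 283.8 and 252.2, lie below all others.

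Ces2e, another hydrolase of the same gene run (probe set 1427137_at), had groups that overlapped in every comparison. It read 1603.7 and 1947.0 in Sham_Vehicle, 1368.0 and 1736.8 in BDL_Vehicle, and 1849.8 and 1507.5 in BDL_GW4064. The arrays of each group differed about as much as the groups did. Its log2 fold change was -0.20 after ligation, with a 95% interval from -0.59 to 0.20 (limma adjusted p = 0.834), and 0.12 with GW4064, from -0.28 to 0.51 (limma adjusted p = 0.948). The Ces2a log2 fold change minus that of Ces2e was -1.24 after ligation and 1.32 with GW4064. The pair was singled out after its values were seen, so these differences are descriptions with no test.

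Ces1f, a hydrolase of the Ces1 run known from lipid droplets of the liver (probe set 1424266_s_at), had its low values in the GW4064 group. It read 475.1 and 355.9 in Sham_Vehicle, 441.8 and 433.1 in BDL_Vehicle, and 283.8 and 252.2 in BDL_GW4064. Both GW4064 arrays lay below the 4 vehicle arrays, while Sham_Vehicle and BDL_Vehicle overlapped. Fibroblast and macrophage markers were higher on average in the same 2 arrays. The mean log2 signal was 8.00 and 8.61 over 6 fibroblast genes, against 6.51 to 7.34 in the vehicle arrays. The mean over 6 macrophage genes was 7.43 and 7.38, against 6.71 to 7.21. Of these genes, Adgre1 (55.9 and 68.5) and Cd14 (106.6 and 92.9) lay within the range of the vehicle arrays. So did the fibroblast gene Lum in BDL_GW4064 replicate 1 (32.9). The enterocyte mean was 11.92 and 11.69, against 11.73 to 11.91, and the part of any list in the Ces1f values was not tested. With GW4064 after ligation the Ces1f value was 1.63-fold lower, with a log2 fold change of -0.70 ± 0.17 (SE) and an interval from -1.10 to -0.30 (limma adjusted p = 0.349). Against Sham_Vehicle the log2 difference of BDL_GW4064 was -0.61 ± 0.17 (SE, limma adjusted p = 0.203), or -0.41 without Sham_Vehicle replicate 1, and after ligation alone it was 0.09 ± 0.17 (SE, limma adjusted p = 0.932). Without BDL_GW4064 replicate 2, the array with high smooth muscle markers, the GW4064 value was -0.62, and a term for the array set gave -0.69. In bulk tissue, fewer cells of a type and less RNA per cell cannot be told apart. The probe set of Ces1f has the suffix that Affymetrix gives to probes shared by several transcripts, and signal from near-identical Ces1 genes was not tested.

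Ces1g, an ester hydrolase of liver and intestine linked to fat secretion (probe set 1449486_at), was brightest in the sham group. It read 80.6 and 76.8 in Sham_Vehicle, 49.5 and 35.2 in BDL_Vehicle, and 45.4 and 27.3 in BDL_GW4064. Both sham arrays lay above all 4 ligated arrays, of which the replicate 2 arrays were below the filter signal of 37.1. The log2 fold change was -0.85 ± 0.30 (SE) after ligation (limma adjusted p = 0.751) and -0.22 ± 0.30 (SE) with GW4064 (limma adjusted p = 0.944). Set against Sham_Vehicle, the BDL_GW4064 group was lower by a log2 difference of -1.07 ± 0.30 (SE, limma adjusted p = 0.203).

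Ces1e, known as egasyn, the protein that holds beta-glucuronidase in the endoplasmic reticulum, was dim and had the same order of groups (probe set 1419510_at). Its signals were 66.5 and 43.8 in Sham_Vehicle, 30.3 and 38.3 in BDL_Vehicle, and 34.2 and 25.9 in BDL_GW4064. The sham arrays lay above the 4 ligated arrays, and both BDL_GW4064 arrays lay below 37.1. Against Sham_Vehicle, BDL_GW4064 was therefore given only a bound, at least 1.41-fold lower (limma adjusted p = 0.287). The log2 fold change after ligation was -0.61 ± 0.31 (SE, limma adjusted p = 0.751), and -0.33 without Sham_Vehicle replicate 1.

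Ces1d, the triacylglycerol hydrolase of liver and fat tissue, had 3 probe sets that followed one course over the arrays, with Pearson correlations of log2 signal between 0.91 and 0.96 over 6 arrays. Whether they share probes, or read signal from other Ces1 genes, was not tested, so they are not independent measures. The probe set 1449081_at read 110.2 and 84.4 in Sham_Vehicle, 71.8 and 54.6 in BDL_Vehicle, and 56.6 and 103.2 in BDL_GW4064. The BDL_Vehicle arrays lay below the sham arrays, and the GW4064 arrays spanned both groups. The probe set 1435370_a_at read 77.3 and 50.8, then 44.6 and 16.3, then 15.5 and 59.5, in the same order of groups. The third, 1435371_x_at, lay between 4.2 and 21.8, below the filter in all arrays, and was not tested. After ligation the log2 fold change was -0.59 ± 0.31 (SE, limma adjusted p = 0.751) for the first and -1.09 ± 0.61 (SE, limma adjusted p = 0.754) for the second. The second was -0.46 without BDL_Vehicle replicate 2 and -1.72 without BDL_Vehicle replicate 1. With GW4064 these probe sets had 0.27 ± 0.31 and 0.16 ± 0.61 (SE), and both turned negative without BDL_GW4064 replicate 2 (-0.14 and -0.69). The second also turned negative without BDL_Vehicle replicate 2 (-0.47). Without BDL_GW4064 replicate 1 the values were 0.69 and 1.02.

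Within groups, markers of fat tissue moved with Ces1d only in BDL_GW4064. The summed signal of the 8 measured white adipocyte markers was 590.7 and 1269 in Sham_Vehicle, 491.6 and 1014 in BDL_Vehicle, and 1084 and 2366 in BDL_GW4064, highest in the array that was high for Ces1d in its group. Adipoq, which adipocytes alone are known to make in quantity, read 216.1 in that array and 12.5 to 54.9 in the others. Fabp4, Lpl and Car3 were also highest there. Cidec, Pck1 and Lep read lower there (143, 487.9 and 6.6) than in BDL_GW4064 replicate 1 (180.3, 537.2 and 9.2). Retn was highest in Sham_Vehicle replicate 1 (38.5). As a list, the markers were low in Sham_Vehicle replicate 1, where the Ces1d signals were highest. In BDL_Vehicle, too, the list was lower in replicate 1, where the Ces1d signals were higher. The part of the adipocyte markers in the Ces1d values was not tested. Of the 9 measured hepatocyte markers, 6 lay below 37.1 in all arrays, among them albumin, Alb, between 7.1 and 28.4. The other 3 were Ttr at 53.7 to 81.2, Apoh at 25 to 120.3 and Cps1 at 1938.1 to 2449.3, a urea cycle gene that the intestine also expresses.

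**Figure D2:**
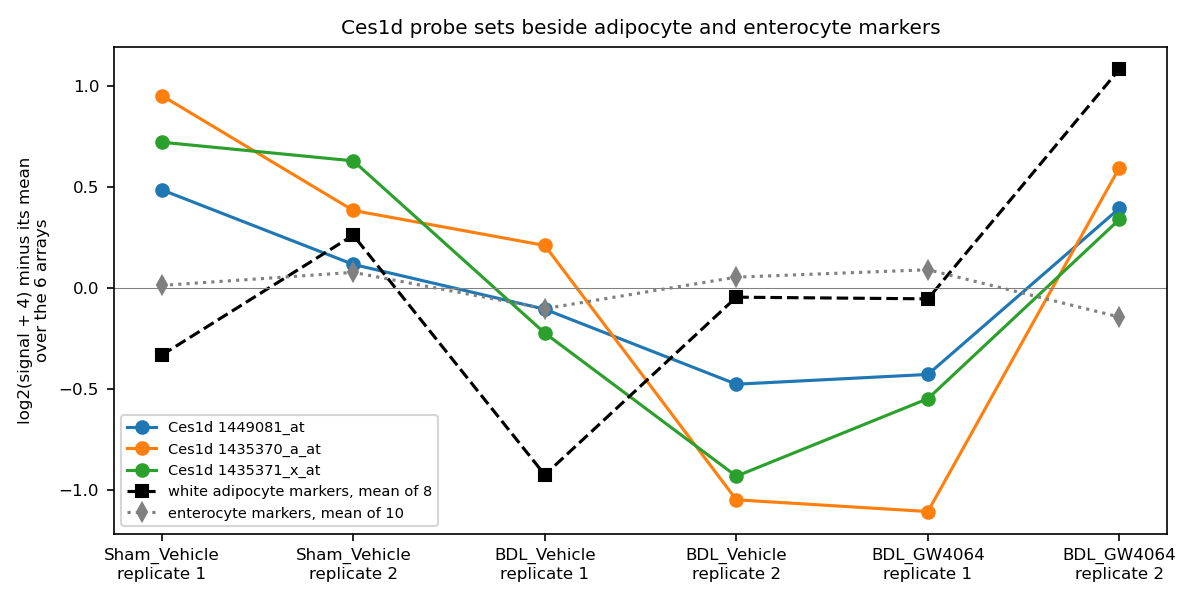
Log2(signal + 4) of the 3 Ces1d probe sets, each minus its mean over the 6 arrays, beside the mean of 8 white adipocyte markers and of 10 enterocyte markers, by array. In BDL_GW4064 replicate 2 the Ces1d probe sets and the adipocyte markers are both high. In Sham_Vehicle replicate 1 the Ces1d probe sets are high and the adipocyte markers are low. Within BDL_Vehicle, replicate 1 is the higher array for Ces1d and the lower for the adipocyte markers.

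The probe set shared by Ces3a and Ces3b, 1451600_s_at, read between 10.8 and 20.9 over the 6 arrays, below the filter in all of them, and its signal belongs to neither gene alone. It was singled out after its values were seen. Other carboxylesterases with a probe set of their own were Ces1c, Ces2g and Ces4a. Ces2g, from the run of Ces2a and Ces2e, read 75.7 and 85.8 in Sham_Vehicle, 69.5 and 71.5 in BDL_Vehicle, and 67.3 and 64.3 in BDL_GW4064, with a log2 fold change of -0.18 ± 0.20 (SE) after ligation and -0.09 ± 0.20 with GW4064. Ces1c, a plasma esterase secreted by the liver, had a mean of 106.9 ± 27.7 in Sham_Vehicle, 78.2 ± 3.39 in BDL_Vehicle and 77.15 ± 13.8 in BDL_GW4064 (SD, n = 2 arrays each). Ces4a lay below 37.1 in all arrays.

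**Figure D3:**
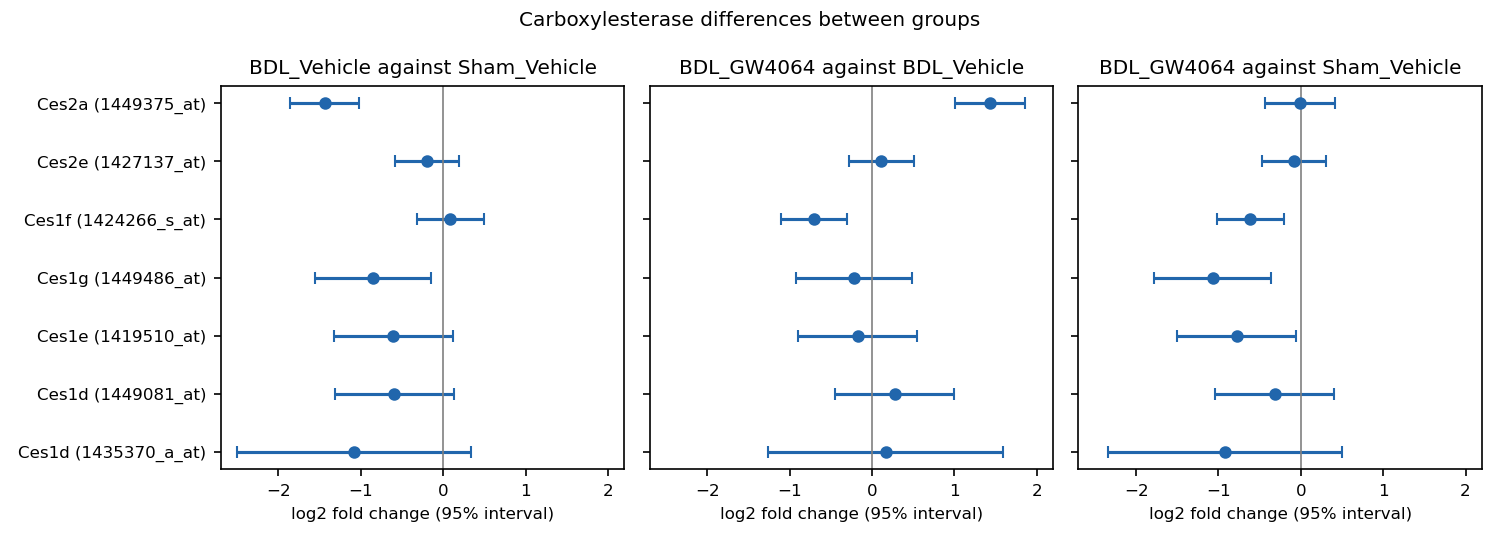
Log2 fold changes of the 7 tested carboxylesterase probe sets with 95% intervals from limma, 1 panel per comparison. The Ces2a interval excludes 0 after ligation (-1.86 to -1.02) and with GW4064 (1.01 to 1.85) and includes it between BDL_GW4064 and Sham_Vehicle. The Ces1f interval excludes 0 in both comparisons of BDL_GW4064. The Ces1g interval excludes 0 in both comparisons with Sham_Vehicle, and the Ces1e interval between BDL_GW4064 and Sham_Vehicle. Intervals are not adjusted for the number of probe sets tested, and no member passed the adjusted threshold.

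The tested members were 7 probe sets of 6 genes, since 1 of the 8 probe sets was below the filter. In the ligation comparison, 0 of 7 passed the adjusted threshold of limma, which 0.0295% of all tested probe sets did, and 2 of 7, Ces2a and Ces1g, were lower with an unadjusted p under 0.05, against 2.98% of all. In the other direction it was 0 of 7, against 3.39%. Members lower without overlap between arrays numbered 5 of 7, against 18.7% of all, and 0 of 7 were higher without overlap, against 18.2%. Both Ces1d probe sets are among the 5, which come from 4 of 6 genes. With 1 probe set per gene, 5 of 6 values were below 0, with a median of -0.60 beside -0.01 for all 7919 tested genes. Ces1e and Ces1d 1435370_a_at lay just above the filter, with a mean log2 signal of 5.3965 and 5.3903 against 5.362, and passed it through their sham arrays, so their lower values after ligation are partly set by the filter. The counts and the median describe the tested members, support no difference and do not describe the family.

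With GW4064 after ligation, 0 of 7 passed the adjusted threshold, which 0.0516% of all did. An unadjusted p under 0.05 was seen for 1 of 7 higher, Ces2a (4.43% of all), and 1 of 7 lower, Ces1f (3.06% of all). Ces2a was also the 1 member higher without overlap (17.4% of all) and Ces1f the 1 lower (18.1% of all). With 1 probe set per gene, 3 were higher and 3 lower, with a median of -0.03 beside 0.00 for all tested genes. Over the 7 probe sets, which count Ces1d again, the median was 0.12. Between BDL_GW4064 and Sham_Vehicle, 0 of 7 passed (0.0368% of all), 3 of 7 were lower with an unadjusted p under 0.05 (8.67% of all), and the same 3, Ces1e, Ces1f and Ces1g, were lower without overlap (26.3% of all). Ces1e passed the filter through its sham arrays, so its place in these counts is partly set by the filter. None was higher by either rule, against 7.31% and 23.8% of all. The median was -0.47 with 1 probe set per gene, and all 7 tested values were below 0. That of Ces2a was 0.23 without BDL_GW4064 replicate 2, and that of Ces1d 1449081_at was 0.09 without BDL_GW4064 replicate 1. Both Ces1d probe sets were above 0 under a term for the array set (0.34 and 0.05). That term rests here on the difference between the BDL_Vehicle arrays alone, so these values are no corrected estimates. The comparisons share arrays, so their counts are not independent of each other.

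Genes whose signal followed that of the brightest carboxylesterase probe set, Ces2e, most closely over the 6 arrays were Plbd1, Aamdc, Arg2, Pigc and Gnpda1, with Pearson correlations of log2 signal between 0.977 and 0.986. None of these 5 passed the threshold in the ligation comparison, where their limma adjusted p was at least 0.796. For Ces2a, added after its values were seen, the closest was Fabp6, which carries bile acids inside ileal enterocytes (r = 0.985), followed by Ramp2, Plek, Casp9 and Sema4b (r between 0.97 and 0.98). Fabp6 read 6480.3 and 6650.7 in Sham_Vehicle, 2620.5 and 3109.5 in BDL_Vehicle, and 6691.3 and 6412.2 in BDL_GW4064. Its log2 fold changes were -1.20 after ligation and 1.20 with GW4064 (limma adjusted p = 0.0194 and 0.0119). With 6 points in 3 groups that share their arrays, these correlations describe the course over the arrays and carry no test.

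**Figure D4:**
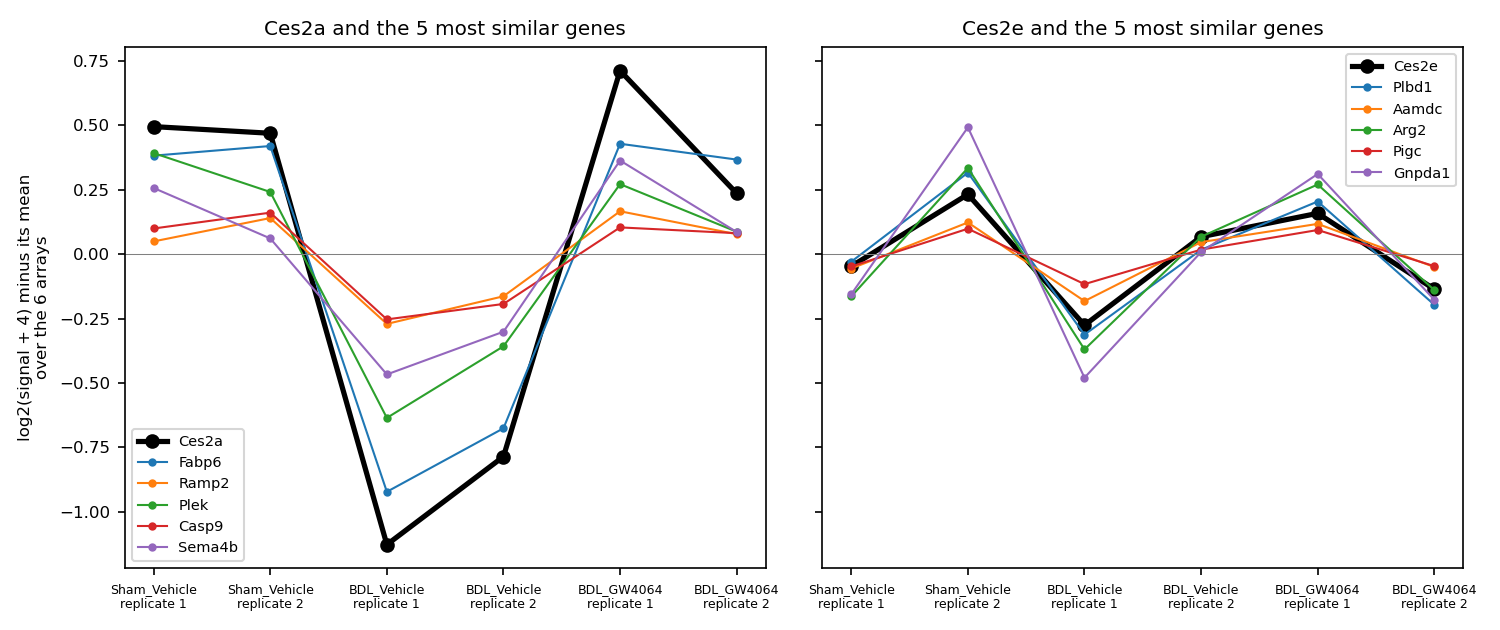
Log2(signal + 4) minus its mean over the 6 arrays for Ces2a (left) and Ces2e (right), each with the 5 genes of highest Pearson correlation. The Ces2a panel drops in both BDL_Vehicle arrays, while the Ces2e panel varies within each group.

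Receptors and factors known to act on this gene family were listed too, with 10 of 12 tested. In each comparison 0 of them passed the threshold of limma in either direction, and their median log2 fold change was 0.00 after ligation, -0.17 with GW4064 and -0.09 between BDL_GW4064 and Sham_Vehicle. The GW4064 median was 0.06 without BDL_Vehicle replicate 2 and 0.03 without BDL_GW4064 replicate 2, and the last was -0.29 without BDL_GW4064 replicate 1 and -0.02 without BDL_GW4064 replicate 2. Nr1i2, the gene of the xenobiotic receptor PXR, read 169.9 and 144.8 in Sham_Vehicle, 174.5 and 182.1 in BDL_Vehicle, and 285.9 and 263.4 in BDL_GW4064. Both GW4064 arrays lay above the 4 others, with a log2 fold change of 0.61 ± 0.16 (SE) against BDL_Vehicle (limma adjusted p = 0.37) and 0.79 ± 0.16 against Sham_Vehicle (limma adjusted p = 0.176). Nr1h4, the gene of FXR itself, read 428.2 and 317.5 in Sham_Vehicle, 539.8 and 423.8 in BDL_Vehicle, and 319.3 and 274.7 in BDL_GW4064, with a log2 fold change of -0.68 ± 0.20 (SE) with GW4064 (limma adjusted p = 0.426). The BDL_GW4064 arrays of Nr1h4 lay below those of BDL_Vehicle.

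Of 34 genes listed as other hydrolases or their cofactors, 24 were tested, and 0 passed the threshold of limma in any comparison. After ligation 11 were higher and 13 lower, with a median log2 fold change of -0.02 (0.14 without BDL_Vehicle replicate 1), and 2 of 24 had an unadjusted p under 0.05, against 6.01% of all tested genes. Those with the smallest p were Acot12, an acyl-CoA thioesterase (-0.68 ± 0.24, SE), and Pon2, a lactonase (-0.59 ± 0.24), followed by the lipases Lpl (-0.87 ± 0.39) and Pnliprp2 (-0.41 ± 0.22), all with an adjusted p of 0.751. Acot12 read 135.5 and 101.1 in Sham_Vehicle, 64.9 and 78.5 in BDL_Vehicle, and 139.0 and 103.5 in BDL_GW4064, so that its BDL_Vehicle arrays were the lowest, as for Ces2a.

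With GW4064, 18 genes of this list were higher and 6 lower, with a median of 0.22 beside 0.00 for all 7919 tested genes. In either direction, 7 of 24 had an unadjusted p under 0.05, against 7.48% of all, and Lipg among them was lower (-0.61). The list was chosen with earlier results of these data known, so its counts and medians are descriptions and support no difference. The median was 0.08 without BDL_Vehicle replicate 1, which also gives the value under a term for the array set, 0.43 without BDL_Vehicle replicate 2, 0.13 without BDL_GW4064 replicate 1 and 0.38 without BDL_GW4064 replicate 2. Ephx1, the microsomal epoxide hydrolase, read 52.8 and 44.7 in Sham_Vehicle, 48.0 and 46.6 in BDL_Vehicle, and 77.8 and 108.2 in BDL_GW4064 (log2 fold change 0.90 ± 0.24, SE, limma adjusted p = 0.394). Pnliprp2 had 0.74 ± 0.22 (limma adjusted p = 0.426). Between BDL_GW4064 and Sham_Vehicle the values were -1.06 ± 0.24 for Pon2, 0.65 ± 0.17 for the acylglycerol hydrolase Abhd6 and 1.12 ± 0.31 for Mgll, the monoacylglycerol lipase (limma adjusted p = 0.176, 0.198 and 0.203). Mgll read 116.2 in BDL_GW4064 replicate 1 and 223.1 in replicate 2, the array with the high adipocyte and smooth muscle markers, whose part in the value was not tested. Lpl, among the 7 with GW4064 and itself on the adipocyte list, read 76.7 and 160.2 in the same arrays. Between BDL_GW4064 and Sham_Vehicle, 6 of 24 had an unadjusted p under 0.05, against 14.2% of all tested genes. The list's median there was 0.25, and -0.11 under a term for the array set, which rests there on the BDL_Vehicle arrays alone.

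Lipid handling partners of these enzymes, such as acyltransferases and lipoprotein assembly genes, were tested for 9 of 11. In each comparison 0 passed, and the median log2 fold change was 0.07 after ligation, 0.14 with GW4064 and 0.26 between BDL_GW4064 and Sham_Vehicle. The last was -0.17 under a term for the array set, which rests there on the BDL_Vehicle arrays alone. Leaving out 1 array gave -0.10 to 0.23 after ligation, -0.02 to 0.27 with GW4064 and 0.10 to 0.37 in the last comparison.

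**Figure D5:**
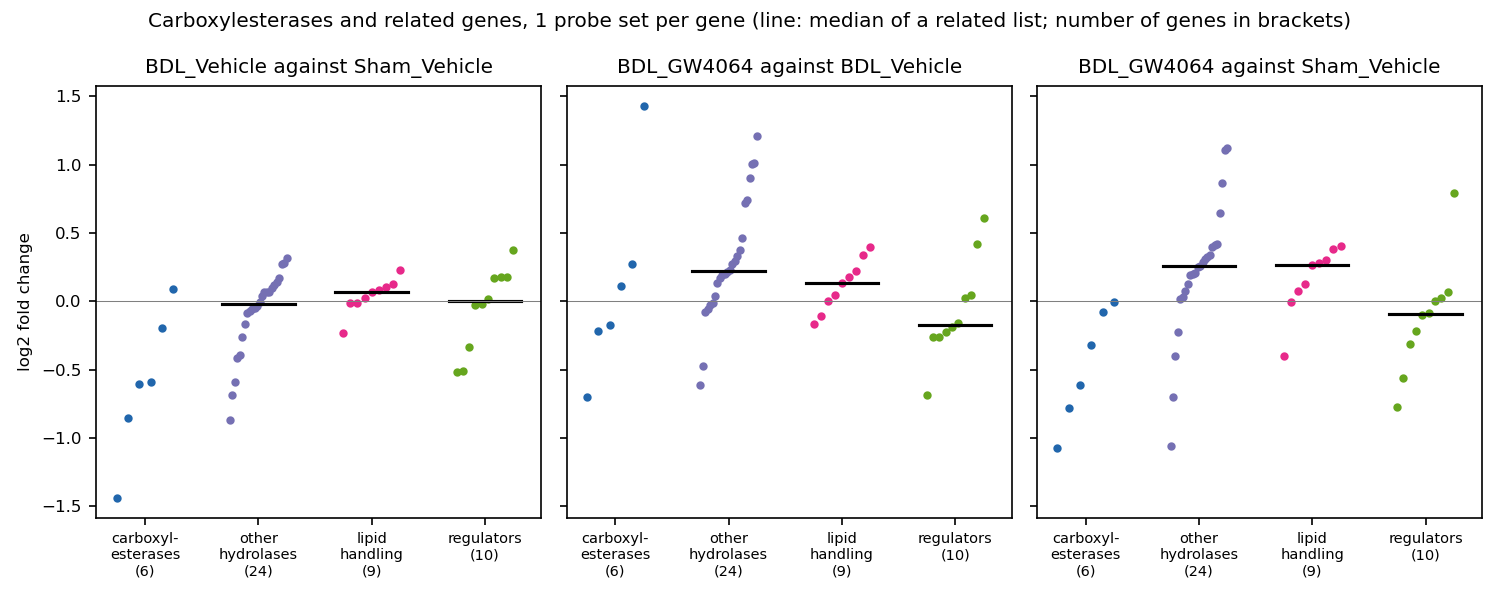
Log2 fold changes of the 6 tested carboxylesterase genes and of related genes (24 other hydrolases or their cofactors, 9 lipid handling genes, 10 regulators), 1 probe set per gene and 1 panel per comparison, with a line at the median of each related list. The lowest carboxylesterase point after ligation and the highest with GW4064 are Ces2a, at -1.44 and 1.43.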

How the data were processed

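RNA from mouse ileum was hybridised to 6 arrays, 2 for each of 3 groups. The authors deposited intensity values on a linear scale, MAS5 signals per the submitters' processing notes (version not given in the sources used here). Each array had a trimmed mean of 200.1, leaving 2% off either end. Of 22690 probe sets, 64 controls were left out. The annotation named 1 gene for 20380 of the remaining 22626, several genes for 691 and no gene for 1555. Values were analysed as log2(signal + 4), and the lowest 40% by mean, below a signal of 37.1, were left out, which left 13575. With both arrays of a group below 37.1, the group was set to it and the fold given as a bound. Groups were compared with limma 3.58.1 (R 4.3.3) on all 6 arrays, with a variance prior following signal, 3 residual and 4.71 prior degrees of freedom, and Benjamini-Hochberg adjustment over all 13575. The script was tested on simulated data. The number of arrays limits the precision. All probe sets of the members are named. From the related lists, up to 4 genes per comparison with the smallest p are named, with Lipg and Lpl added for GW4064. For the brightest carboxylesterase probe set the 5 genes of highest correlation are named. Lists use the brightest probe set of each gene. Members and lists were chosen with earlier results of these data known. The array platform names no genome build, so coordinates are only those of the RefSeq windows. Alternatives were quantile normalisation, pseudocounts of 1 and 16, no filter or one at 60%, no variance trend, replicate number as a block, a term for the array set, and leaving out each array.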

Additional observations from a re-analysis of the deposited data

How the results depend on the processing

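Probe sets past the threshold numbered 4 in the ligation comparison, 7 with GW4064 after ligation and 5 between BDL_GW4064 and Sham_Vehicle. They numbered 2 and 4 in the first pair without a filter, 1, 2 and 0 without the variance trend, 2, 4 and 0 with the replicate block, and 2 and 0 in the last pair with a term for the array set. Leaving out each array gave 1 to 6, 2 to 48 and 0 to 29. Whether the replicate numbers pair the arrays was not settled. Differences between replicates correlated at 0.04, 0.09 and -0.12 between groups, but each group gives only 1 such difference. The replicate block changed no carboxylesterase call (Ces2a limma adjusted p = 0.193 and 0.131). Of 360 alternative values for carboxylesterase probe sets, 337 kept direction and side of the threshold, 2 passed it (both Ces2a with GW4064) and 21 changed sign. A term for the array set turned the sign with GW4064 for Ces1c (0.0137), Ces1g (0.0045) and Ces2e (-0.0565), and between BDL_GW4064 and Sham_Vehicle for the Ces1d probe sets (0.34 and 0.0533). Leaving out each array turned Ces1f after ligation (-0.12 to 0.29). With GW4064 it turned Ces1c (-0.20 to 0.15), Ces1d (-0.69 to 1.02 and -0.14 to 0.69), Ces1e (-0.35 to 0.0041), Ces1g (-0.55 to 0.11) and Ces2e (-0.0565 to 0.29). Between BDL_GW4064 and Sham_Vehicle it turned Ces1d 1449081_at (-0.73 to 0.0935), Ces2a (-0.25 to 0.23) and Ces2e (-0.23 to 0.0659). The cause was not tested. Of 126 alternative medians of the related lists, 7 moved by more than the spread between replicates. With an array left out, the lone array of a group is assumed to vary like the others. Signal near the filter limits Ces1d, Ces1e and Ces1g.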
